A study of Mus musculus with 12 samples.

Results

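Expression of 10 cardiac transcription factor genes was examined in bulk RNA of mouse ventricles. They were Gata4, Gata6, Nkx2-5, Tbx5, Tbx20, Hand2, Srf, Myocd, Irx4 and Prox1, each taken from the deposited gene table by its symbol, and all 10 were found once among the 54949 features. The table holds 12 poly-A libraries from ventricles, with atria removed, of wild-type male C57BL/6N mice, in 2 groups of 6 libraries. The study addressed heart failure with preserved ejection fraction (HFpEF). Its mouse model, fed a high-fat diet and given the nitric oxide synthase inhibitor L-NAME at 0.5 g/L in the drinking water, was set against animals on normal diet and water. Mice entered at 8 weeks of age and were examined after 5 weeks. The libraries carry the names HF-1 to HF-6 and con-1 to con-6, whereas sample titles and treatment labels say the reverse, HFpEF for the con libraries and CON for the HF libraries. The groups are therefore called HF-named and con-named here, and which of them received diet and L-NAME cannot be told from the labels. The design text speaks of 5 ventricular samples per group for bulk sequencing, against the 6 labelled libraries. Whether every library comes from its own mouse is not labelled, and p-values therefore cover only the spread between these libraries, which may be technical.

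These factors act together in the embryo to build the heart and later hold the gene programme of working heart muscle. GATA4, NKX2-5, TBX5 and TBX20 bind enhancers in combination, HAND2 serves mainly the right ventricle and outflow tract, and IRX4 and PROX1 shape chamber-specific and fibre-type-specific muscle genes. SRF binds the CArG box, a short AT-rich element of muscle and growth-response genes, and myocardin is its muscle-specific coactivator. GATA6 and HAND2 are also known from fibroblasts, smooth muscle or endocardium, and PROX1 from lymphatic endothelium.

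In the HF-named libraries 3 of the 10 genes were called higher and none lower, by the quasi-likelihood test of edgeR at a Benjamini-Hochberg adjusted p under 0.05 over 15114 tested genes. At an unadjusted p under 0.05 still 0 of the 10 were lower, and DESeq2 and limma-voom gave 0 as well. The 3 were Tbx20, Srf and Myocd, with folds of 1.20, 1.14 and 1.29. Over all tested genes 13.5% were called, 8.48% as higher and 5.06% as lower, as 1282 and 765 genes. The median log2 fold change of the 10 genes was 0.15, against -0.01 for all tested genes, and 9 of 10 had a positive value, against 47.3% of all. These counts depend on the scaling between libraries. With library totals in place of TMM factors, the median of all tested genes moved to -0.13, 5 of the 10 genes stayed positive, none was called higher, Irx4 was called lower, and the table gave 478 higher and 2561 lower calls.

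Promoter sequence, from 250 bases before to 50 bases after the start site, was matched in RefSeq (GRCm38.p6) for 6 of the 10 genes, as 7 promoters with 2 for Prox1. Those of Srf, Tbx20, Irx4 and Hand2 are printed, since Srf and Tbx20 were called higher, Irx4 alone had a negative log2 fold change, and Hand2 was the most variable of the 10 genes. Capitals mark the CArG box in Srf, GGGCGG on either strand in Tbx20 and Irx4, and GATAA on either strand in Hand2. The regions are chr17:46556113-46556412 (minus strand) for Srf, chr9:24774254-24774553 (minus strand) for Tbx20, chr13:73260247-73260546 (plus strand) for Irx4 and chr8:57320733-57321032 (plus strand) for Hand2.
Srf: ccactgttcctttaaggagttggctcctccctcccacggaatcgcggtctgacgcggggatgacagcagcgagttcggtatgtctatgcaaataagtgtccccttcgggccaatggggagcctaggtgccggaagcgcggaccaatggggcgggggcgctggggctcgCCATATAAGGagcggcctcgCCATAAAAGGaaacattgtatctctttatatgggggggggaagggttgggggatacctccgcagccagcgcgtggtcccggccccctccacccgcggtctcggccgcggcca
Tbx20: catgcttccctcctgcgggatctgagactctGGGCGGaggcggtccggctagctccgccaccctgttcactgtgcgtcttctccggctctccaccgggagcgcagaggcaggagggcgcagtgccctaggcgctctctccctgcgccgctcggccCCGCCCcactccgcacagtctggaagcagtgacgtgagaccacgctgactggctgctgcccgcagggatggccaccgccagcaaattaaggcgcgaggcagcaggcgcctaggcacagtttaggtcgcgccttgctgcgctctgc
Irx4: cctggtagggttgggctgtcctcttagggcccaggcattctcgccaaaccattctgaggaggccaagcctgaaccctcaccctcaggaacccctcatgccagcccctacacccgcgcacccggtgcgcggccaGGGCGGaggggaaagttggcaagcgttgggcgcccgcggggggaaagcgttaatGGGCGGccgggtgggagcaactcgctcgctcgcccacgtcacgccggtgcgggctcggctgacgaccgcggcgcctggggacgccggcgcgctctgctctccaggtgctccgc
Hand2: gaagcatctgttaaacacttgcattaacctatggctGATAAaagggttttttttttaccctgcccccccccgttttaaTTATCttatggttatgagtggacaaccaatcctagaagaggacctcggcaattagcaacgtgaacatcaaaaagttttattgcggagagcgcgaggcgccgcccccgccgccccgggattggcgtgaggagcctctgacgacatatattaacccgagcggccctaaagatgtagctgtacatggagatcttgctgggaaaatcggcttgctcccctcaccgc
With the start site as position 0, the Srf promoter held CArG boxes at -82 to -73 and at -62 to -53. Among 32851 RefSeq promoters of 300 bases, 1.63% held a CArG box and 6 promoters, or 0.018%, held at least 2. SRF is known to act on its own promoter through such boxes. GGGCGG, the core of the SP1 element, occurred in 6 of the 7 promoters, against 35.66% of all. GATAA occurred in the Hand2 promoter only, at -214 to -210 and -172 to -168. Of all promoters, 25.41% held GATAA and 5.27% held at least 2. TATAAA was found in 2 of 7 promoters (13.62% of all) and CANNTG, the E box of basic helix-loop-helix factors, in 4 of 7 (72.31%). TNAAGTG, the NKX2-5 element, was in none of the 7, against 11.54% of all promoters. The T-box core GGTGTGA (3.98% of all) and the MEF2 element (3.19%) were also in none. All motifs were sought on both strands, a match is a run of letters and not a measured binding site, and the Srf TATAAA at -38 to -33 overlapped no CArG box. The guanine and cytosine content was 63.3% in Srf, 68.3% in Tbx20, 70.7% in Irx4 and 50.3% in Hand2, against a median of 52.7%.

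Library totals ran between 14443186 and 22048689 gene counts. Transcripts of mitochondrial DNA took 23.9% to 27.2% of counts in HF-named libraries and 21.0% to 24.0% in con-named libraries. The summed 12 cardiomyocyte markers, led by Myh6 and Tnnt2, took 7.59% to 8.07% of counts in HF-named and 8.12% to 8.65% in con-named libraries. These shares of library totals did not overlap, but the totals include the mitochondrial transcripts, which took more of the HF-named libraries, and the shares carry no TMM factor. With TMM factors, edgeR called 2 of the 12 markers higher and 5 lower, with a median log2 fold change of -0.06. The 11 endothelial and endocardial markers, led by Fabp4 and Cdh5, were summed as CPM, read counts scaled here to library totals without TMM factors. They came to 1055, 1287 and 1754 CPM (lowest, median, highest) in HF-named and to 1509, 1748 and 2033 in con-named libraries. By the same edgeR test with TMM factors, 4 of 10 fibroblast, 3 of 11 endothelial, 1 of 6 lymphatic and 4 of 10 macrophage markers were lower in HF-named libraries. The share called lower over all tested genes was 5.06%. None of these markers was higher, a count that DESeq2 and limma-voom also gave as 0. Of 6 atrial and conduction markers 1 was higher and 1 lower, none of 2 epicardial and 6 erythroid markers was called, and no adipocyte marker had enough counts to be tested. In bulk tissue, fewer cells of a type and less RNA per cell cannot be told apart. The atrial myosin light chain Myl7 had 27 and 16 counts in HF-named libraries 1 and 6 and at most 4 counts in each of the other 10 libraries.

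The factors stood at moderate levels. On the deposited FPKM scale, which is per length assigned to each gene, the median over 12 libraries was highest for Gata4, at 24.4, followed by Nkx2-5 at 20.4 and Srf at 19.9. Irx4 followed at 12.1, Gata6 at 10.03, Prox1 at 9.04, Hand2 at 8.66, Tbx20 at 8.39, Myocd at 5.93 and Tbx5 at 5.34. Gata4 lay above 90.9% of tested genes and Tbx5 above 63.8%. Between neighbours in this order, the ranges over libraries overlapped in 8 of 9 cases; Srf, at 17.2 to 22.3 FPKM, and Irx4, at 10.6 to 15.9 FPKM, did not overlap. Replacing the deposited values by counts per exon base of the mm10 annotation moved Nkx2-5 to 18.1, below Srf, and Gata6 to 8.61. The other genes kept their medians, so for them the deposited length matches all annotated exon bases merged, and the replacement is no separate check. Tbx20, with 11997 such bases, had the highest mean CPM of the 10 genes in HF-named libraries, at 108.4.

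**Figure D1:**
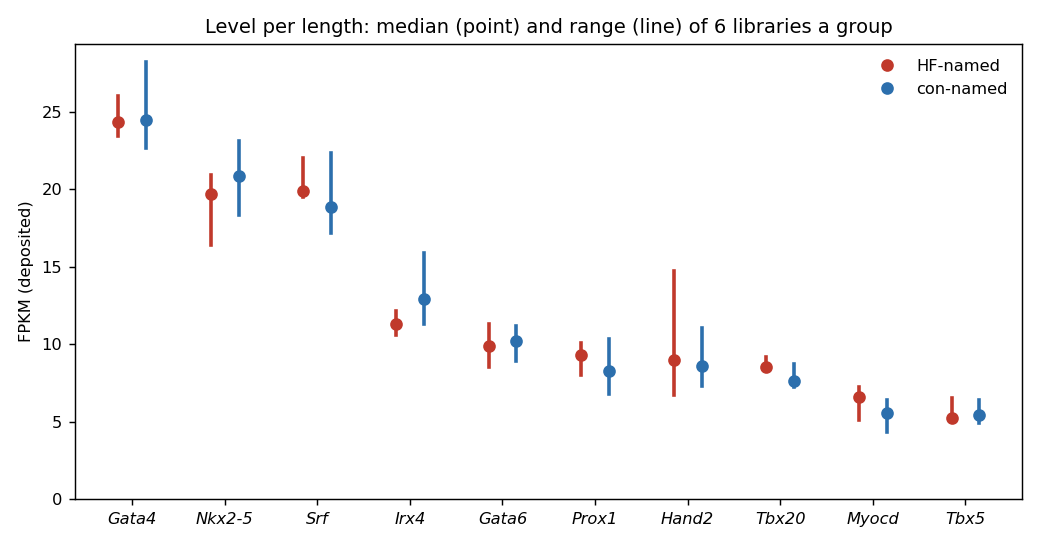
Deposited FPKM of the 10 genes in order of their median over 12 libraries, with the median (point) and the range (line) of 6 HF-named (red) and 6 con-named (blue) libraries. Gata4, Nkx2-5 and Srf lie apart from the other 7 genes, whose medians run between 5.34 and 12.1 FPKM.

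TBX20, a T-box factor that adult cardiomyocytes need for normal contraction and calcium handling, was the single gene of the 10 whose groups did not overlap. Tbx20 (ENSMUSG00000031965; mm10, chr9:24718138-24774303, minus strand) had 97.6, 108 and 120 CPM (TMM-scaled; lowest, median, highest) in HF-named libraries, against 85.7, 89.5 and 96.8 CPM in con-named libraries. All 6 HF-named libraries were above all 6 con-named libraries, a separation that 3.41% of tested genes showed in this direction. The log2 fold change was 0.26 (SE 0.05, adjusted p = 0.00409 by edgeR), and 90.9% of tested genes had a lower one. Tbx20 stayed called with each of the 12 libraries left out, at adjusted p between 0.00120 and 0.0130 in the same edgeR test. Under library totals its log2 fold change was 0.14 and its edgeR adjusted p 0.0795. In FPKM, which carries no TMM factor, the groups overlapped, at 8.25, 8.54 and 9.19 in HF-named and 7.22, 7.64 and 8.74 in con-named libraries.

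TBX5, the T-box factor of the Holt-Oram syndrome and a regulator of atrial and conduction rhythm, did not pass the test. Tbx5 (ENSMUSG00000018263; chr5:119832668-119885219, plus strand) had 23.3, 26.2 and 32.6 CPM in HF-named and 21.1, 24.4 and 29.1 CPM in con-named libraries. One library, HF-named replicate 4, lay above all con-named libraries, and otherwise the groups overlapped. The log2 fold change was 0.11 (SE 0.09, adjusted p = 0.462 by edgeR).

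**Figure D2:**
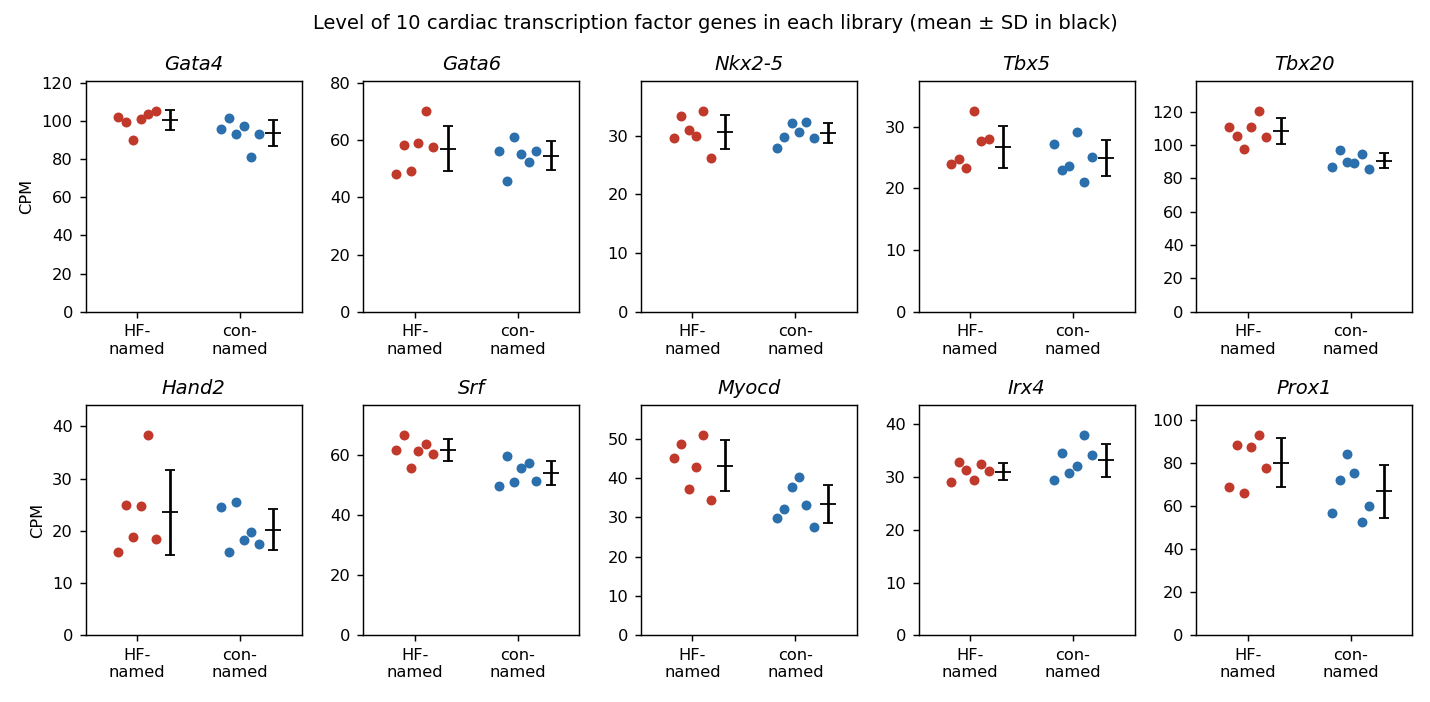
TMM-scaled CPM of each gene in 6 HF-named (red) and 6 con-named (blue) libraries, with the group mean ± SD in black. The groups part completely for Tbx20 alone of the 10 genes, and Hand2 shows 1 HF-named library at 38.4 CPM.

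Serum response factor and myocardin were both higher in HF-named libraries, and both calls were lost when certain single libraries were removed. Srf (ENSMUSG00000015605; chr17:46548329-46556175, minus strand) had 55.6, 61.4 and 66.7 CPM in HF-named and 49.7, 53.6 and 59.6 CPM in con-named libraries. HF-named libraries were above all con-named ones in 5 of 6 cases, and the log2 fold change was 0.18 (SE 0.06, adjusted p = 0.0346 by edgeR). The Srf call was kept in 5 of 12 fits with 1 library left out. It was lost without HF-named replicate 1, 2, 4 or 5, at edgeR adjusted p of 0.0553, 0.0852, 0.0607 and 0.0800, and without con-named replicate 1, 3 or 6, at 0.0753, 0.0684 and 0.0830. Without HF-named replicates 1 and 6, which held the most Myl7 counts, the log2 fold change was 0.19, against 0.18 with all libraries. The edgeR adjusted p over 2 fewer libraries was 0.0799.

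Myocd (ENSMUSG00000020542; chr11:65176561-65269989, minus strand) had 34.4, 44.0 and 51.0 CPM in HF-named and 27.5, 32.7 and 40.3 CPM in con-named libraries. HF-named libraries exceeded all con-named ones in 4 of 6 cases. Its log2 fold change of 0.37 (SE 0.11, adjusted p = 0.0380 by edgeR) was the highest of the 10 genes, and 95.8% of tested genes had a lower one. The call held in 4 of 12 fits with 1 library left out. It was lost without HF-named replicate 1, 2, 4 or 5, at edgeR adjusted p of 0.0699, 0.0798, 0.0710 and 0.0827, and without con-named replicate 1, 2, 5 or 6, at 0.0741, 0.0726, 0.0841 and 0.0725. Across these fits the log2 fold change stayed between 0.31 and 0.43. Under library totals, the edgeR adjusted p was 0.486 for Srf and 0.0963 for Myocd.

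**Figure D3:**
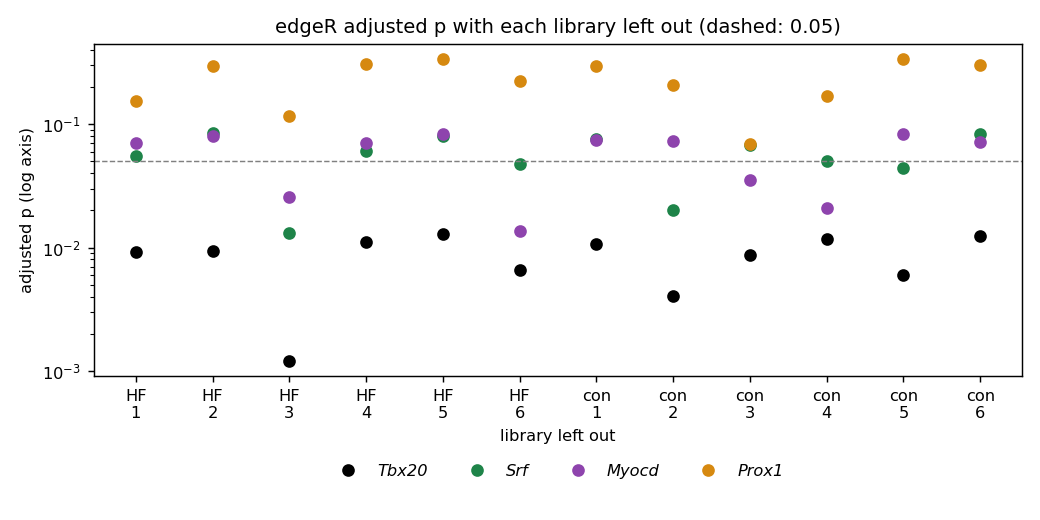
Adjusted p of edgeR's quasi-likelihood test (log axis) for Tbx20, Srf, Myocd and Prox1 with the library named on the x axis left out; the dashed line is 0.05. Tbx20 stays under the line in all 12 fits, Srf in 5, Myocd in 4 and Prox1 in none.

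Of 27 tested genes listed as SRF and myocardin targets, 3 were called higher and none lower, with a median log2 fold change of 0.08. All tested genes gave 8.48% higher and 5.06% lower, so that 3 of 27 higher is near the background. At an unadjusted p under 0.05, 5 were higher and 5 lower, and DESeq2 called 4 higher and 1 lower, limma-voom 3 and 0. Without HF-named replicate 4 or 5, 1 was called higher by edgeR, and library totals gave 2 higher and 3 lower. The 3 were the LIM-domain protein gene Fhl1, the adhesion-complex gene Vcl and the matricellular protein gene Cyr61. Fhl1 averaged 106.8 ± 5.08 CPM in HF-named and 82.4 ± 7.45 CPM in con-named libraries (SD, n = 6 per group), a log2 fold change of 0.37 (edgeR adjusted p = 0.000717), called in 12 of 12 fits with 1 library left out. Vcl and Cyr61, at log2 fold changes of 0.31 and 0.56 (edgeR adjusted p = 0.0224 and 0.0289), were called in 8 of 12 such fits each. Smooth muscle targets did not pass the test: Acta2 averaged 95.3 ± 28.3 CPM in HF-named and 68.1 ± 18.9 CPM in con-named libraries (SD, n = 6 per group; edgeR adjusted p = 0.192), and Myh11 had a log2 fold change of 0.34 (edgeR adjusted p = 0.123). These genes also mark smooth muscle cells and pericytes, of whose 8 tested markers 1, Rgs5, was called higher and none lower. The part of those cells in the Myocd difference was not tested.

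GATA4, a zinc-finger factor that drives cardiomyocyte growth genes, and its relative GATA6 were not called. Gata4 (ENSMUSG00000021944; chr14:63198922-63271692, minus strand) had 90.3, 102 and 105 CPM in HF-named and 81.4, 94.4 and 102 CPM in con-named libraries. Its log2 fold change was 0.10 (SE 0.05, adjusted p = 0.249 by edgeR), with 3 HF-named libraries above all con-named ones. Gata6 (ENSMUSG00000005836; chr18:11052064-11085635, plus strand) had 48.1, 58.0 and 70.2 CPM in HF-named and 45.9, 55.8 and 61.1 CPM in con-named libraries, a log2 fold change of 0.07 (SE 0.09, adjusted p = 0.652 by edgeR). The groups overlapped for both genes, and both log2 fold changes turned negative under library totals, to -0.02 for Gata4 and -0.05 for Gata6.

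Among the homeobox genes, none was called. NKX2-5, the homeodomain factor of early heart progenitors and the adult conduction system, gave Nkx2-5 (ENSMUSG00000015579; chr17:26838664-26845009, minus strand) values of 26.2, 30.4 and 34.2 CPM in HF-named and 28.0, 30.2 and 32.4 CPM in con-named libraries. HF-named values lay both above and below the whole con-named range, and the log2 fold change was 0.01 (SE 0.06, adjusted p = 0.932 by edgeR), with -0.11 under library totals.

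IRX4, the Iroquois factor that marks ventricular against atrial muscle, was the single gene of the 10 with a negative value. Irx4 (ENSMUSG00000021604; chr13:73260479-73269608, plus strand) had 29.0, 31.2 and 32.9 CPM in HF-named and 29.4, 33.1 and 38.0 CPM in con-named libraries. The groups overlapped, with 2 HF-named libraries below all con-named ones and a log2 fold change of -0.10 (SE 0.06, adjusted p = 0.330 by edgeR). Under library totals it was -0.22, and Irx4 was called lower at an edgeR adjusted p of 0.0493.

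PROX1, a homeodomain factor that in mouse heart represses fast skeletal muscle genes, had a Prox1 (ENSMUSG00000010175; chr1:190118035-190170714, minus strand) level of 66.1, 82.7 and 93.3 CPM in HF-named and 52.5, 66.2 and 84.6 CPM in con-named libraries. The log2 fold change of 0.27 (SE 0.13) was of about the size of that of Tbx20, but the spread was wider and the edgeR adjusted p was 0.189. Removing con-named replicate 3 brought it to 0.0691. Markers of lymphatic endothelium, the other main site of Prox1, summed to 28.3, 31.7 and 33.7 CPM in HF-named and 36.8, 39.7 and 51.0 CPM in con-named libraries. That sum is scaled to library totals and carries no TMM factor, unlike the Prox1 values. On that scale it was below the con-named range in every HF-named library. With TMM factors, edgeR called 1 of 6 tested lymphatic markers lower and 0 higher, with a median log2 fold change of -0.28.

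HAND2, a basic helix-loop-helix factor, was the most variable gene of the set. Hand2 (ENSMUSG00000038193; chr8:57320983-57324633, plus strand) had 15.9, 21.8 and 38.4 CPM in HF-named and 15.9, 19.0 and 25.4 CPM in con-named libraries. The coefficient of variation was 34.6% in HF-named and 19.3% in con-named libraries, against 5.26% and 7.29% for Gata4. The log2 fold change of 0.22 (SE 0.22, adjusted p = 0.551 by edgeR) shrank to 0.02 without HF-named replicate 5, the library at 38.4 CPM. It rose to 0.31 without HF-named replicate 1, and to 0.41 without HF-named replicates 1 and 6 (edgeR adjusted p = 0.251). The antisense RNA Hand2os1 shares 461 exon bases with Hand2, or 19.6% of them, and averaged 79.2 ± 8.26 CPM in HF-named and 79.0 ± 10.1 CPM in con-named libraries (SD, n = 6 per group; edgeR adjusted p = 0.984). The sources used here do not give a strand setting for the counting, so reads of the shared bases cannot be assigned to Hand2 or its antisense partner with certainty. Smaller overlaps exist for Prox1, with 133 bases (1.59%) shared with Prox1os, and for Gata6, with 93 bases (1.43%) shared with 1010001N08Rik.

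**Figure D4:**
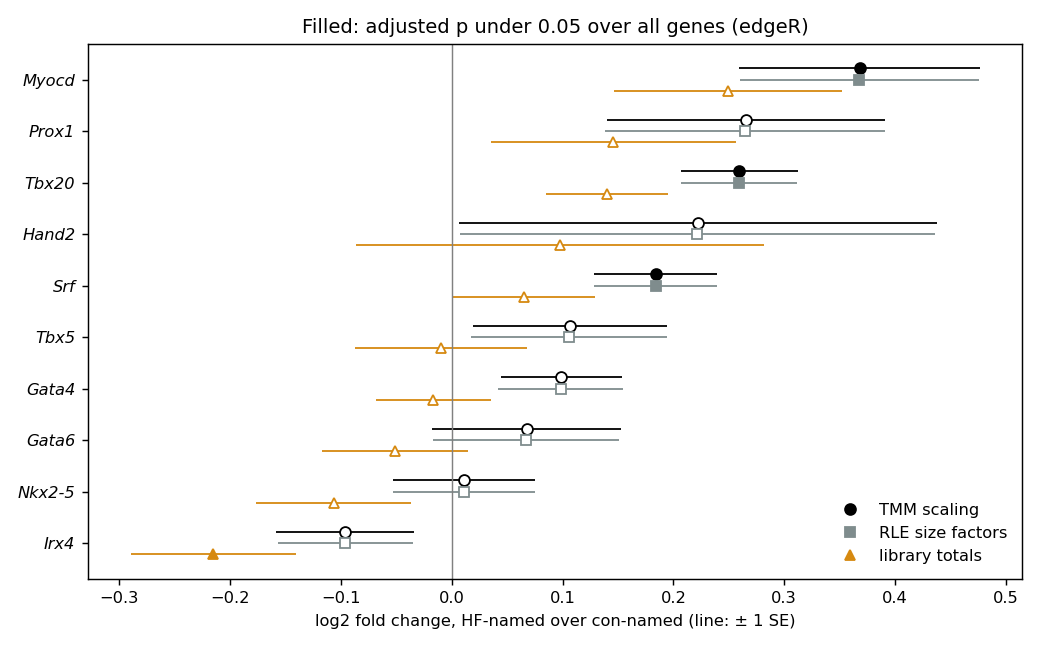
Log2 fold change, HF-named over con-named, of each gene (x axis, with ± 1 SE) under TMM scaling (circles), RLE size factors (squares) and library totals (triangles); filled symbols have an adjusted p under 0.05. TMM and RLE values lie together, and library totals place every gene lower and leave only Irx4 filled.

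Ratios within a library do not depend on the scaling. Of the 45 pairs of the 10 genes, 2 had ratios of CPM that did not overlap between the groups, both with Irx4 as the denominator. Over all pairs of tested genes 4.26% did so, in either direction, so that 2 of 45 is near the background. With Irx4 as the denominator, 2.98% of the other tested genes had higher ratios in HF-named libraries without overlap. Tbx20 over Irx4 was 3.12, 3.54 and 3.83 (lowest, median, highest) in HF-named and 2.50, 2.79 and 2.94 in con-named libraries, a log2 difference of 0.35. Srf over Irx4 was 1.78, 1.99 and 2.12 in HF-named and 1.51, 1.67 and 1.74 in con-named libraries, a log2 difference of 0.28. Myocd over Irx4 had the largest log2 difference, 0.46, but overlapped, at 1.11, 1.47 and 1.57 in HF-named and 0.804, 0.974 and 1.26 in con-named libraries. Tbx5 over Gata4 differed by 0.00 on the log2 scale. These ratios carry no test.

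Relative to the summed cardiomyocyte markers, Tbx20, Myocd and Srf had the lowest unadjusted p-values. Tbx20 had 1328 ± 68.2 ppm of the marker counts in HF-named and 1123 ± 102 in con-named libraries (SD, n = 6 per group), a log2 difference of 0.24 (two-sided exact permutation test, p = 0.00649). For Myocd the log2 difference was 0.35 (exact p = 0.0152) and for Srf 0.17 (exact p = 0.0390). Prox1 followed at 0.26 (exact p = 0.0909), and the other 6 genes gave exact p between 0.186 and 0.935. The smallest p this design allows is 0.002165, and 10 such tests were run, given unadjusted. None of the 10 stayed under 0.05 after Benjamini-Hochberg adjustment over these tests. With each library left out in turn, the exact p stayed at or under 0.0130 for Tbx20 and 0.0368 for Myocd in 12 of 12 cases. For Srf it was above 0.05 in 7 of 12 cases, without HF-named replicate 1, 2 or 4 or con-named replicate 1, 3, 4 or 6, with an exact p of up to 0.0736. It dropped to an exact p of 0.0368 for Prox1 without con-named replicate 3, and to 0.0130 for Gata4 without con-named replicate 2. The marker sum itself contains genes that moved in both directions, with 2 of 12 called higher and 5 lower.

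Variation between libraries was compared for log2 CPM taken as deviations from the group means. Of the 45 pairs of the 10 genes, 33 had a positive Pearson r, with a median of 0.34, against 49.96% of all pairs of tested genes, with a median of 0.00. These counts carry no test, and the pairs share libraries and genes. Gata6 and Hand2 were the closest pair, with r = 0.87 and Spearman rho = 0.88 over 12 libraries (permutation p = 0.00065 and 0.00070; Benjamini-Hochberg adjusted over 45 pairs, 0.0293 and 0.0315). The relation was present within both groups, at r = 0.92 in HF-named and 0.75 in con-named libraries, and r was 0.77 without the 2 libraries farthest from the median of Gata6. It was the only pair with an adjusted value under 0.05. Nkx2-5 and Myocd followed at r = 0.73 (permutation p = 0.0110, adjusted 0.247), and Tbx20 and Srf at r = 0.69 (permutation p = 0.0168, adjusted 0.252).

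Gata6 and Hand2 both ran against the endothelial and endocardial markers. The Pearson r with the mean log2 level of the 11 markers was -0.86 for Gata6 and -0.86 for Hand2 (permutation p = 0.00098 and 0.00108; adjusted over 90 relations of 10 genes with 9 marker lists, 0.0486 for each). Spearman rho was -0.92 for Gata6 (adjusted 0.0180) and -0.85 for Hand2 (adjusted 0.0995). Without the 2 libraries farthest from the median of that gene, r was -0.84 for Gata6 and -0.83 for Hand2. Within groups r was -0.90 in HF-named and -0.78 in con-named libraries for Gata6, and -0.85 in HF-named and -0.89 in con-named libraries for Hand2. With the fibroblast markers, r was -0.72 for Gata6 and -0.65 for Hand2, neither past the adjustment (0.266 and 0.276). With the pericyte and smooth muscle markers, r was -0.73 for Gata6 and -0.61 for Hand2 (adjusted 0.266 and 0.530). The cardiomyocyte markers gave the opposite sign, at r = 0.66 for Gata6 and 0.40 for Hand2 (adjusted 0.266 and 0.757). These marker relations were added after the data had been seen, all values are shares of the same libraries, and the part of cell composition in the Gata6 and Hand2 differences between libraries was not tested.

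**Figure D5:**
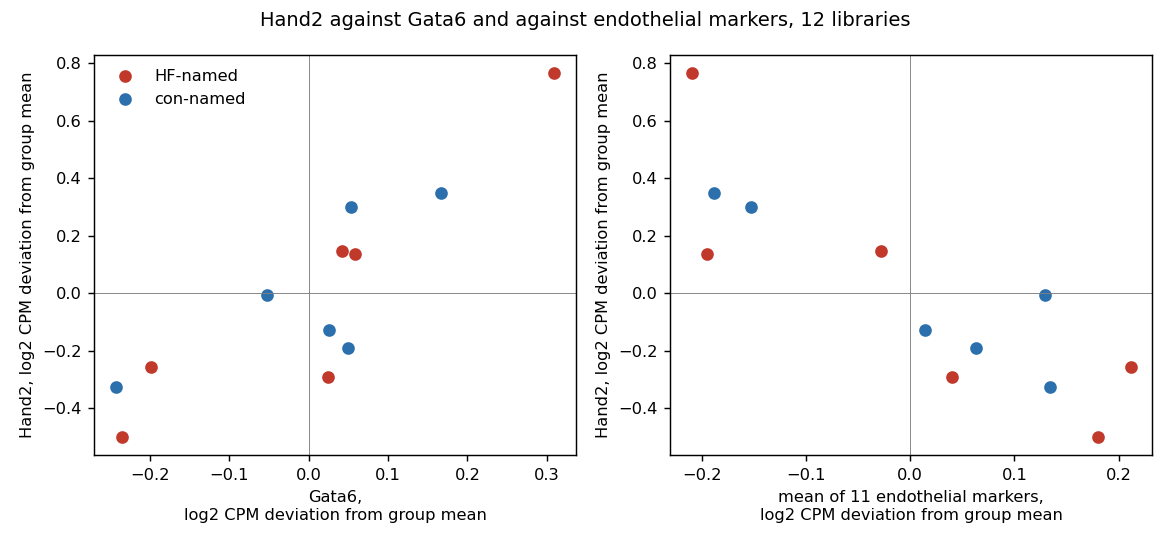
Deviation of Hand2 log2 CPM from its group mean (y axis) against that of Gata6 (left) and against the mean of 11 endothelial and endocardial markers (right), 1 point per library, HF-named in red and con-named in blue. Hand2 rises with Gata6 (r = 0.87) and falls with the endothelial markers (r = -0.86).

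Over all tested genes, the 3 whose deviations followed Tbx20 most closely were Khsrp, Chd4 and Rrbp1, at r = 0.92, 0.89 and 0.88 over 12 libraries. None of the 3 differed between the groups by the edgeR test, with log2 fold changes of -0.03, 0.05 and 0.06. For Irx4 the 3 nearest genes were Aldh1a3, Armc7 and Grap2, at r = 0.90, 0.89 and 0.89, all with a mean under 3 CPM in both groups. These genes were picked from 15114 for their r, which therefore carries no test.

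Among 31 tested partners and relatives of the factors, 3 were called higher and 3 lower, with a median log2 fold change of 0.04. The shares over all tested genes were 8.48% higher and 5.06% lower. The higher count was 1 without HF-named replicate 2 or 5, 9 without HF-named replicate 3, 1 under library totals and 5 in DESeq2, and the lower count ran between 2 and 4 with 1 library left out. Tead1, a Hippo pathway factor that binds muscle enhancers, averaged 157 ± 16.0 CPM in HF-named and 124 ± 10.8 CPM in con-named libraries (SD, n = 6 per group; log2 fold change 0.34, edgeR adjusted p = 0.00470). Mkl2, an SRF coactivator related to myocardin, had a log2 fold change of 0.22 (edgeR adjusted p = 0.0200) and its relative Mkl1 one of -0.01 (edgeR adjusted p = 0.970). Esrrg, an orphan nuclear receptor of oxidative metabolism, had 0.28 (edgeR adjusted p = 0.0414), called in 2 of 12 fits with 1 library left out. Hopx, a homeodomain-only protein that restrains SRF, was lower, at 171.6 ± 4.796 CPM in HF-named and 202.8 ± 17.6 CPM in con-named libraries (SD, n = 6 per group; log2 fold change -0.24, edgeR adjusted p = 0.00956).

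Relatives of Irx4 made up the other lower calls. Irx3, which patterns the ventricular conduction system, averaged 24.5 ± 4.84 CPM in HF-named and 34.5 ± 3.26 CPM in con-named libraries (SD, n = 6 per group; log2 fold change -0.50, edgeR adjusted p = 0.00956), and was called in 12 of 12 fits with 1 library left out. Irx2, named after its value was seen, had a log2 fold change of -0.48 (edgeR adjusted p = 0.0427) at a mean of 3.60 CPM in HF-named and 5.02 CPM in con-named libraries, and was called in 2 of 12 such fits. Irx1 and Irx5 had log2 fold changes of -0.57 and -0.39 (edgeR adjusted p = 0.109 and 0.281). Zfpm2, the FOG2 cofactor of GATA4, had 0.23 (edgeR adjusted p = 0.0575).

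Listed targets of GATA4, NKX2-5 and TBX5 were called in both directions, 6 of 25 higher and 7 lower, with a median log2 fold change of 0.02. Of all tested genes, 8.48% were called higher and 5.06% lower. The higher count was 3 without HF-named replicate 2, 4 or 5 or con-named replicate 2, 5 or 6, and the lower count was 4 without HF-named replicate 2 or 4. Library totals gave 3 higher and 9 lower. Ankrd1, a stress-induced sarcomere-associated protein gene, averaged 1565 ± 229 CPM in HF-named and 1109 ± 119 CPM in con-named libraries (SD, n = 6 per group; log2 fold change 0.50, edgeR adjusted p = 0.00273). Ryr2, the calcium release channel of the sarcoplasmic reticulum, had a log2 fold change of 0.46 (edgeR adjusted p = 0.00942). The ventricular myosin light chain genes Myl3 and Myl2 were lower, at log2 fold changes of -0.25 and -0.24 (edgeR adjusted p = 0.00705 and 0.0119), as was the potassium channel gene Kcnh2 at -0.27 (edgeR adjusted p = 0.00956). All 5 were called in each of 12 fits with 1 library left out. The atrial natriuretic peptide gene Nppa averaged 76.3 ± 65.7 CPM in HF-named and 87.7 ± 23.3 CPM in con-named libraries (SD, n = 6 per group; edgeR adjusted p = 0.830). For Nppa, 4 HF-named libraries lay below all con-named ones, and 1, HF-named replicate 1 at 188.1 CPM, lay above them all.

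Of 6 tested genes listed for IRX4, 2 were called lower by edgeR, Myl2 and Vegfc, and none higher. None was higher at an unadjusted p under 0.05, in DESeq2 or in limma-voom either. Myl7 and Sln, also listed, had too few counts for the main filter. Their counts lay mainly in HF-named replicates 1 and 6, at 27 and 16 for Myl7 and 16 and 3 for Sln. Without a filter beyond 1 count, which admits both genes, edgeR called 2 listed genes higher. The lower count was 1 without HF-named replicates 1 and 6, and 3 under library totals. Of 8 tested genes listed for PROX1, 1 was called higher and 2 lower, with 0 higher in edgeR without HF-named replicate 2, 4 or 5 or con-named replicate 2, 5 or 6. For both lists, the shares over all tested genes were 8.48% higher and 5.06% lower. Tnnt1, the slow skeletal troponin T gene, averaged 8.78 ± 1.28 CPM in HF-named and 16.1 ± 3.16 CPM in con-named libraries (SD, n = 6 per group; log2 fold change -0.87, edgeR adjusted p = 0.000562). Vegfc, the growth factor of lymphatic vessels, stands in both lists and had -0.49 (edgeR adjusted p = 0.0121), while Ppargc1a, the coactivator of mitochondrial genes, had 0.35 (edgeR adjusted p = 0.0368) and was called in 6 of 12 fits with 1 library left out. The fast skeletal genes Tnni2 and Myl1 had log2 fold changes of -0.69 and 0.35, without passing the test (edgeR adjusted p = 0.114 and 0.484).

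In the comparison table that the authors deposited (the authors' deposited table), 3 of the 10 genes had an adjusted p under 0.05, Tbx20 at 0.000190, Myocd at 0.0202 and Srf at 0.0423. In the authors' deposited table Prox1 stood at 0.249 and Gata4 at 0.560.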

How the data were processed

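Ventricular poly-A RNA was sequenced in 12 libraries. The submitters' processing notes name cutadapt 1.15, HISAT2 2.0.5, HTSeq 0.9.1 and the mm10 build, without roles; the annotation release and the strand setting were not given in the sources used here. Per the file headers, the authors deposited raw counts and FPKM for each library, and their own comparison with normalized read counts (a signal per group), log2 fold changes and p-values. Groups follow the library names, against the titles. Counts were fitted with edgeR 4.0.16 (R 4.3.3): filterByExpr, TMM factors, robust quasi-likelihood test with group as the only term, Benjamini-Hochberg adjustment over 15114 genes, threshold 0.05. CPM are TMM-scaled. Correlations used log2 CPM with a prior count of 2 and 100000 two-sided permutations within groups. Alternatives included RLE factors, library totals, other filters, limma-voom (limma 3.58.1), DESeq2 1.42.0 and each library left out. The fit was tested on simulated data with raised genes only. The smallest simulated fold was above those of Tbx20 and Srf, so that test does not cover calls of their size. The 10 genes and all lists were chosen with earlier results of these data known. Named genes were the 10, the called genes of each listed pathway (at most 5 of smallest p), the 2 most abundant markers per cell type, and the 3 genes nearest to Tbx20 and Irx4; others, such as relatives of a named gene, were chosen after their values were seen. Gene positions are from the mm10 annotation, promoters from RefSeq. In 30 within-group pairs, libraries differed by more than counting noise (chi-square per degree of freedom 4.02 to 16.3).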

Additional observations from a re-analysis of the deposited data

Results flagged for a closer look

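In Gata4, HF-named replicate 3 lay apart from its group, at 90.29 CPM against 99.6 to 105 CPM in the other 5 HF-named libraries. Its gap to the nearest library was 0.626 of the group's range, just past the 95% critical value of Dixon's test. The test was made in 20 groups of libraries, and chance flags about 1 in 20.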

How the results depend on the processing

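Under RLE factors, both other filters, limma-voom, DESeq2 and without mitochondrial transcripts, Tbx20, Srf and Myocd stayed called higher and no other of the 10 genes was called. With library totals, the number of the 10 genes called higher was 0 and called lower 1, and 478 genes of the table were higher and 2561 lower; Gata4, Gata6, Nkx2-5 and Tbx5 turned to -0.0166, -0.0509, -0.1066 and -0.0095. Same-numbered libraries of the 2 groups did not deviate together (r between -0.161 and 0.09). These values show no pairing by number, but a small shared effect could be missed. With the replicate block, 833 genes were higher and 426 lower, and Tbx20, Srf and Myocd stayed called. The higher and lower calls were then 1 and 3 among partners and relatives, and 2 and 1 among GATA4, NKX2-5 and TBX5 targets. They were 2 and 0 among SRF targets, 0 and 1 among IRX4 targets and 0 and 2 among PROX1 targets. With 1 library left out, 1 to 3 of the 10 genes were called higher, 863 to 1590 genes were higher and 501 to 963 lower, with 863 without con-named replicate 5 and 501 without HF-named replicate 4. In these fits Gata6 ran between -0.0043 and 0.1126 and Nkx2-5 between -0.0267 and 0.0546. Relative to cardiomyocyte markers, Gata6 ran between -0.0059 and 0.0899 and Nkx2-5 between -0.0320 and 0.0382. Without HF-named replicates 1 and 6, chosen after seeing their Myl7 counts, 960 genes were higher and 461 lower, and 2 of the 10 stayed called, Tbx20 (edgeR adjusted p = 0.0165) and Myocd (0.0288). The cause of these changes was not tested.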
